A study of Homo sapiens with 4 samples.

Results

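The genes described here encode potassium channels and their regulatory subunits, followed by chromatin contacts in human neuroblastoma cells with TDP-43 present or knocked down. They are the autosomal protein-coding genes whose symbols begin with one of 17 prefixes, from KCNA to KCNV, and were picked by symbol alone. This gave 88 of 19126 autosomal protein-coding genes of the RefSeq annotation of GRCh38.p14. The prefix KCNA takes in KCNAB1, KCNAB2 and KCNAB3, which encode cytoplasmic beta subunits and no pore. A contact belonged to a gene where at least 1 of its 2 bins overlapped the gene body. All 88 genes had at least 1 such contact, and together they had 791 of the 86625 autosomal pairs of 50 kb bins in the deposited table. The number per gene ran from 1 to 40, with a median of 8, and 31 pairs were shared by 2 or more of the genes. Long genes and genes with abundant contacts hold more listed pairs, and the pairs of a gene share bins, so they are not replicates of one another.

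Potassium channels let potassium leave or enter a cell and so set its resting voltage and end its action potentials. Voltage-gated channels open on depolarisation, calcium-activated channels couple the voltage to calcium entry, inward rectifiers hold the resting voltage, and two-pore channels carry a leak current. Silent subunits pass no current alone and modify KCNB channels, while KCNE, KCNMB and KCNAB proteins are auxiliary subunits. Neurons use many of these genes at once, several of which cause epilepsy, cardiac arrhythmia or neonatal diabetes when mutated. Bodies range from single-exon genes inside 1 bin to large genes spread over many bins. In Micro-C, chromatin is cut by micrococcal nuclease, neighbouring ends are ligated and each read pair reports 2 stretches of DNA that lay close together, so the measurement concerns folding and not the amount of RNA.

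The cells were SH-SY5Y, an established neuroblastoma line. There were 2 libraries of genotype control and 2 of genotype TDP-43 knockdown. TDP-43 is an RNA- and DNA-binding protein made from TARDBP. Per the protocol, lentiviruses carried an shRNA named shNC or shTDP-43 under a U6 promoter, and stable knockdown cells were selected with puromycin at 2 μg/mL for 2 weeks and then held at 1 μg/mL. The labels do not state whether the control libraries carried shNC, whether the lines were clones, or what the word merged in the titles joins. The labels also do not name separate cultures, so the p-values below measure only the spread between these libraries. The question addressed is which contacts of the channel genes differed when TDP-43 was depleted.

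Over the listed pairs the libraries held from 115168160 to 163147992 contacts, with both knockdown libraries below both control libraries. TMM factors ran from 0.944 to 1.05. The list holds only abundant pairs, so these totals are not full depths, and folding of sparse loci was not analysed here. The smallest total of a listed pair over the 4 libraries was 868 contacts. A sparse pair may therefore be listed only because its contacts were high in the knockdown. A decrease from the same control level may be absent from the list. An shRNA acts on RNA, so contacts give no check of the knockdown, and cell type markers were not measured. Contacts within the bin of TARDBP itself were 38.2 ± 1.43 CPM (contact counts scaled to the TMM-adjusted total of each library) in control and 32.9 ± 0.0424 in knockdown (SD, n = 2 per group; log2 fold change -0.22, edgeR adjusted p = 0.00265, and -0.08 with adjusted p = 0.326 under the second scaling described next).

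Contacts of channel genes changed in both directions, and decreases outnumbered increases. With TMM scaling, 167 of 791 pairs passed an adjusted p of 0.05 in edgeR (21.1%), of which 49 were higher and 118 lower in the knockdown. Of all autosomal pairs 16.3% passed, 5.67% higher and 10.6% lower. The median log2 fold change was -0.01 over the channel pairs and 0.02 over all autosomal pairs. Across the list the fold change declined with the abundance of a contact, and the fold changes that the authors deposited lack this trend. All values were therefore also computed with that trend removed by a loess offset, a second scaling called detrending below. There 141 channel pairs passed (17.8%), 51 higher and 90 lower, where 11% of all autosomal pairs passed, 4.99% higher and 6.06% lower. Under both scalings 106 pairs passed in the same direction, 29 higher and 77 lower, and 5 passed in opposite directions. DESeq2 gave 127 pairs, 24 higher and 103 lower. Leaving out knockdown library 1 left 64 pairs and leaving out knockdown library 2 left 88, each fit having a single knockdown library.

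By gene, 61 of the 88 had at least 1 pair past the threshold (69.3%), of which 16 had only higher pairs, 37 only lower pairs and 8 both. Over all 17949 autosomal coding genes with a listed pair the shares were 58.5% touched, 11.6% by higher pairs only and 42.7% by lower pairs only. After detrending 47 channel genes were touched (53.4%), 25 by higher pairs only, 21 by lower pairs only and 1 by both, against 38.5%, 12.5% and 23.9% for all genes. The TMM shares differed by class. Interior genes up to 50 kb were touched in 74.5% of channel genes and 54.1% of all, those over 200 kb in 56.3% and 67.9%. Within 5 Mb of a chromosome end the shares were 57.1% and 84.4%. After detrending the shares in these classes, in the same order, were 51.1% and 30.7%, 56.3% and 53.5%, and 57.1% and 70.5%. For interior genes over 200 kb the order of the shares therefore depended on the scaling. With TMM, 5 of 16 such channel genes and 437 of 1242 of all had only higher pairs. Of the 37 genes with only lower pairs under TMM, 20 had only lower pairs after detrending, 12 had none, 4 had only higher pairs and 1 had both. Of the 16 with only higher pairs, 13 had only higher pairs and 3 had none, which does not mean that the pairs were the same: KCNK5, KCNK12, KCNK16 and KCNK17 had 0 pairs higher under both scalings. The touched genes numbered 24 without knockdown library 1, and without knockdown library 2 they numbered 34.

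**Figure D1:**
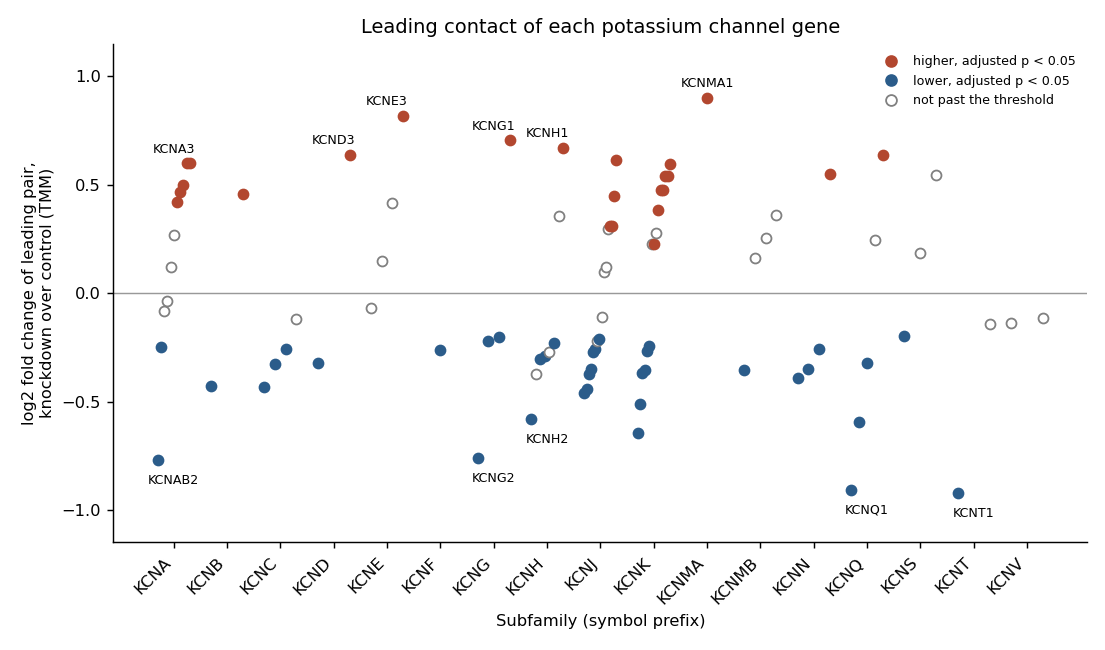
Log2 fold change (knockdown over control, TMM) of the leading pair of each of the 88 genes, by subfamily. The leading pair is the largest change past the threshold whose groups do not overlap, or the largest change where none passed (open points); KCNMA1 stands highest at 0.90 and KCNT1 lowest at -0.92.

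Position along the chromosome moved with the direction. Among channel pairs within 5 Mb of a chromosome end, 37 of 98 were lower and 0 higher, where 30.1% of all such autosomal pairs were lower and 0.809% higher. After detrending 41 of the 98 were lower and 0 higher, against 24.99% and 0.800% of all such pairs. In the interior 49 of 693 channel pairs were higher and 81 lower, or 7.07% and 11.7%, where 6.40% and 7.73% of all interior pairs were higher and lower. After detrending the interior channel pairs were 51 higher and 49 lower, or 7.36% and 7.07%, against 5.61% and 3.24% of all. The 7 channel genes in those end regions include KCNA1, KCNA6, KCNG2, KCNQ1, KCNT1 and KCNV2. Of those named, KCNG2, KCNQ1 and KCNT1 had lower pairs and no higher pairs, and KCNA1, KCNA6 and KCNV2 had no pair past the threshold. The part of chromosome position in the results below was not tested.

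For 74 genes the annotated start could be placed in a bin, 65 from the RefSeq promoter table and 9 because the whole body lies in 1 bin, which gave 71 bins. Contacts within these start bins were lower in 33 and higher in 0 with TMM. Of all listed autosomal bins over a coding gene 20.1% were lower and 6.29% higher. These lie anywhere over a gene body, and start bins of other genes were not counted, so the 2 sets are unlike. With TMM 13.5% of them were lower where 1 gene lay over the bin, 34.8% with 2 to 3 genes and 75.9% with 4 or more. After detrending the 71 start bins gave 9 lower and 10 higher, against 6.52% and 8.14% of all bins over a coding gene. The direction at the start bins therefore depended on the scaling. The decreases under TMM gathered among busy bins. Of the 24 start bins with fewest contacts (2.19 to 13.1 CPM) 2 were lower, of the middle 24 there were 10, and of the 23 busiest (53.1 to 245 CPM) there were 21. After detrending these classes held 2, 2 and 5 lower bins and 0, 4 and 6 higher bins. Genes whose start bin was lower under both scalings numbered 9, among them KCNG2, KCNT1, KCNJ14, KCNJ4, KCNN2, KCNJ11, KCND2 and KCNJ18. The start used for KCNN2 (114362070, plus strand) lies inside its annotated body, which begins at 114055978. The bin over that end of the body had a TMM fold change of 0.05 (edgeR adjusted p = 0.840). The start used for KCNJ4 (38444028, minus strand) also lies in another bin than the 5′ end of its body (38455199). The TMM count was 14 bins without knockdown library 1 and without knockdown library 2 it was 17.

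**Figure D2:**
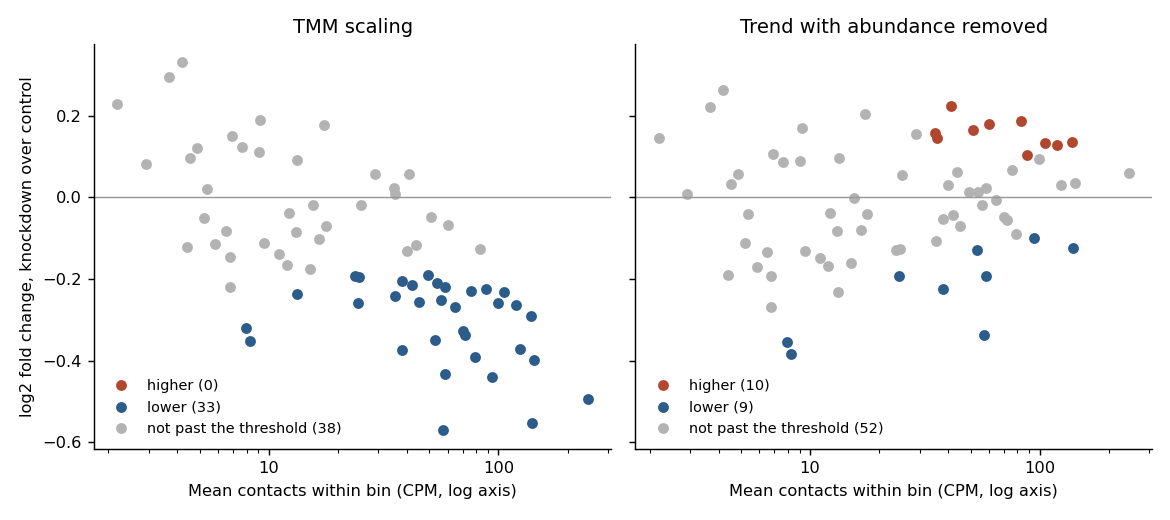
Log2 fold change of contacts within the 71 start bins against the mean level of the bin (CPM, log axis), with TMM scaling (left) and after detrending (right). Each point is 1 bin; 33 bins were lower on the left, and on the right 10 were higher and 9 lower.

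The upstream sequences of 3 genes with only higher pairs (KCNMA1, KCNH1 and KCNA2) and 3 with only lower pairs (KCNT1, KCNAB2 and KCNG2) are shown. Each is the 250 bases before the annotated start in RefSeq GRCh38.p14, 5′ to 3′ on the gene's strand, with CG dinucleotides in capitals. They lie at chr10:77637809-77638058 (minus strand), chr1:211134149-211134398 (minus), chr1:110631441-110631690 (minus), chr9:135701935-135702184 (plus), chr1:5992426-5992675 (plus) and chr18:79797688-79797937 (plus), in the order printed.
KCNMA1: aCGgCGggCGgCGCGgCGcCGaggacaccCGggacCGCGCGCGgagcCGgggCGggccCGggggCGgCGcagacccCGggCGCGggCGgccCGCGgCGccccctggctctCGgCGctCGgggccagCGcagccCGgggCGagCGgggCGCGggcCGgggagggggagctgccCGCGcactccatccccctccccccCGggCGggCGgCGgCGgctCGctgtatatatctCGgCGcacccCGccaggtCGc
KCNH1: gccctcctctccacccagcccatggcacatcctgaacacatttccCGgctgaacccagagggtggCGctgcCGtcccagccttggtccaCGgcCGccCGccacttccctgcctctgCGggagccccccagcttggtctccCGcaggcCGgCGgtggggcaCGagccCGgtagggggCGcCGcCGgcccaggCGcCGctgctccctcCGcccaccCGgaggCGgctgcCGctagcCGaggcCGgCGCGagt
KCNA2: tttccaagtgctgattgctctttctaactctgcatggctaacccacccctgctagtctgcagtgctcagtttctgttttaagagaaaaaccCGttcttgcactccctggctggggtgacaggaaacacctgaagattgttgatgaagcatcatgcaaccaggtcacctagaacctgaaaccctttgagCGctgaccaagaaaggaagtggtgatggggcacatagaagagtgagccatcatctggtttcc
KCNT1: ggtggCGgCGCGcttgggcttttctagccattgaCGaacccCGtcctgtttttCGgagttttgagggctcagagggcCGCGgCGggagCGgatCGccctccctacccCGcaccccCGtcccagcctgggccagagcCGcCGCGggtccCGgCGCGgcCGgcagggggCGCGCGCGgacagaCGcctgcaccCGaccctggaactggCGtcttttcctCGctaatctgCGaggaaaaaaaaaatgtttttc
KCNAB2: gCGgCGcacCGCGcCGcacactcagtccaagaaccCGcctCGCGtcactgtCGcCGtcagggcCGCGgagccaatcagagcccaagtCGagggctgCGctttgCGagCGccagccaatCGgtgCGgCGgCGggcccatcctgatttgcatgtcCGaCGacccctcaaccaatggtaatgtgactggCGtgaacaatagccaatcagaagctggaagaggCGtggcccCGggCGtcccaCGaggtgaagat
KCNG2: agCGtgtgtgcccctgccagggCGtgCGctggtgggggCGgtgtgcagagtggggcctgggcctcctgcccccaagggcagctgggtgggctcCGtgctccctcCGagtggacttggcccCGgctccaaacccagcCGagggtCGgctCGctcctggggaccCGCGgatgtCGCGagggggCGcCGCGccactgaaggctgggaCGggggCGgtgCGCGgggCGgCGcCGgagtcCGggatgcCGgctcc
The KCNMA1 stretch held 46 CG dinucleotides and the KCNA2 stretch 2, the other 4 holding 25 to 29. The 3 genes with decreases held 26 to 29 and the 3 with increases 2, 25 and 46. These directions are not those of every start bin. With TMM the start bins of KCNMA1, KCNH1 and KCNA2 had fold changes of 0.01, 0.09 and 0.02, none past the threshold. After detrending those of KCNMA1 and KCNA2 were higher (0.14 and 0.16) and that of KCNH1 did not pass. The start bins of KCNT1 and KCNG2 were lower under both scalings, that of KCNAB2 with TMM only (-0.34, and -0.06 after detrending). Over the 65 channel genes with an entry the median was 15 CG, against 17 over 15101 autosomal coding genes. TGTGTG, the repeat that TDP-43 binds as RNA, occurred on either strand in 13 of 65 channel stretches (20%) and in 12.0% of all. TTCAGCACC, part of the element of the neuronal repressor REST, occurred on either strand upstream of KCNH6 and KCNK3, in 3.08% of channel stretches and 0.265% of all. The start bins of KCNH6 and KCNK3 were higher after detrending (log2 fold changes 0.14 and 0.19) and had TMM fold changes of -0.29 (adjusted p = 1.45e-05) and -0.13 (adjusted p = 0.101). These are matches of letters in a short window and were not tested against the contacts.

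Among the calcium- and sodium-activated channels (7 genes, 135 pairs), 15 pairs were higher and 17 lower with TMM, and 19 and 16 after detrending. These were 23.7% and 25.9% of its pairs, against 16.3% and 11% of all autosomal pairs. With TMM the increases lay in KCNMA1 and KCNN3 and the decreases in KCNT1, KCNN1, KCNN2, KCNN3 and KCNN4. After detrending KCNN3 and KCNN4 had 0 lower pairs. KCNT2 had no pair past the threshold. This class had 13 pairs past the threshold without knockdown library 1, and without knockdown library 2 it had 18.

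KCNMA1 encodes the pore of the BK channel, a large-conductance channel opened by calcium and voltage together. It spans 768 kb on chromosome 10 (76869602 to 77637808 in hg38, minus strand) and 16 bins, all of them listed. Of its 34 pairs 32 had a positive fold change and 12 passed as higher with none lower. The leading pair joined neighbouring bins over the 3′ part of the gene body (76900001 to 76950000 and 76950001 to 77000000) and held 161 and 211 contacts in control and 293 and 314 in knockdown. After scaling these were 1.05 and 1.37 CPM against 2.42 and 2.11 CPM. The control mean of this pair, 1.21 CPM, was the lowest of any channel pair between bins. The pair may be listed only because the knockdown was high. The leading increases of KCNE3, KCNH1 and KCNG1 began at similar control means of 1.24, 1.29 and 1.43 CPM. Both knockdown libraries lay above both controls. Leading pairs past the threshold were chosen to have groups that do not overlap, so here and below this is no added evidence. Over all channel pairs the groups did not overlap in 468 of 791. The same share over all autosomal pairs is not given here, so this count says nothing particular to channel genes. The log2 fold change was 0.90 ± 0.23 SE (edgeR adjusted p = 0.00144), and 0.81 (adjusted p = 0.00906) after detrending. Without knockdown library 1 it was 0.80 with an adjusted p of 0.0807.

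The increase in KCNMA1 was uneven along the gene. The 5 bins up to 200 kb from the bin of the start held 26.2 to 40.5 CPM in control, and their log2 fold changes were 0.01 to 0.10 with TMM, none past the threshold. The 11 bins from 250 kb onward held 5.22 to 18.3 CPM in control, and 7 of them were higher, by 0.30 to 0.53. The bin at 77200001 to 77250000, for example, went from 7.30 to 10.5 CPM (log2 fold change 0.53, adjusted p = 1.03e-05). After detrending 4 of the 5 bins near the start were higher by 0.14 to 0.20 and again 7 of the 11 farther bins, so the lack of a change near the start depended on the scaling and the increase in the far part did not. In all, 13 pairs of KCNMA1 passed after detrending, 9 with DESeq2, 4 without knockdown library 1 and 6 without knockdown library 2, each of them higher.

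**Figure D3:**
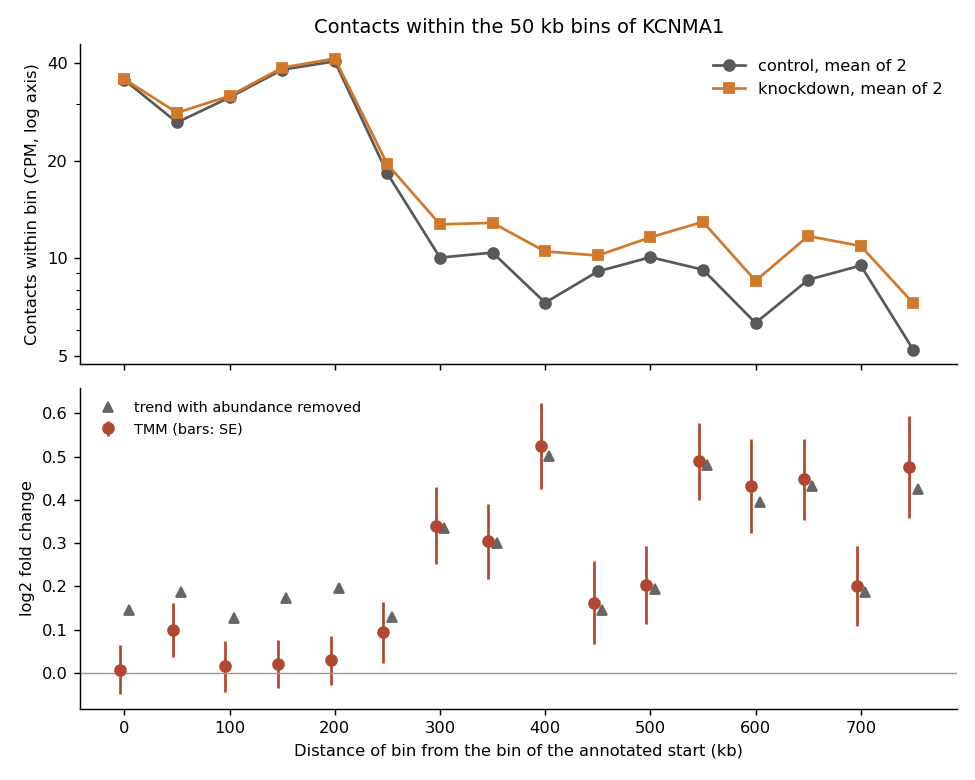
Contacts within each 50 kb bin of KCNMA1 by distance of the bin from that of the annotated start (kb): mean CPM of 2 libraries per group on a log axis (top), and log2 fold change with TMM (points, bars are SE) and after detrending (triangles; bottom). Levels stand at 26.2 to 40.5 CPM in control in the first 5 bins and at 5.22 to 18.3 CPM beyond, where 7 of 11 bins were higher.

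KCNN3 encodes SK3, a small-conductance channel opened by calcium through calmodulin. It had 40 pairs, 3 higher and 2 lower with TMM. The 3 higher pairs included its leading pair, between 154650001 to 154700000 and 154800001 to 154850000 on chromosome 1, both over the gene, at 2.23 and 2.53 CPM in control and 3.34 and 3.61 CPM in knockdown. The groups did not overlap (log2 fold change 0.55 ± 0.18 SE with adjusted p = 0.0190; 0.47 and 0.0578 after detrending). The 2 lower pairs were contacts within its busiest bins, with fold changes of -0.22 (adjusted p = 0.00109, its start bin) and -0.20 (adjusted p = 0.00581). After detrending these bins were higher and KCNN3 had 6 higher pairs and 0 lower. The call of the leading pair was lost without control library 1 (adjusted p = 0.0809), without knockdown library 1 (0.125) and without knockdown library 2 (0.245). Without either knockdown library in turn KCNN3 had 0 pairs past the threshold.

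KCNT1 encodes the sodium-activated channel Slack, mutated in severe infantile epilepsies. It lies 2.40 Mb from the end of the long arm of chromosome 9 (135702185 to 135795502) and had 27 pairs, 11 lower and 0 higher. Its leading pair joined the bin of its start, which also holds SOHLH1, to the bin of TMEM250 400 kb away and had 630 and 607 contacts in control and 261 and 311 in knockdown. These were 4.12 and 3.94 CPM against 2.16 and 2.09 CPM. The groups stood far apart relative to their spread (4.03 ± 0.126 and 2.12 ± 0.0459 CPM, SD, n = 2), for a log2 fold change equal to -0.92 ± 0.17 SE (adjusted p = 9.03e-06; -0.999 after detrending). Of its 14 pairs at 200 kb or more, 6 were lower, with a median of -0.53 over the 14. Contacts within its start bin were also lower, from 166 to 113 CPM. The leading call held under every alternative run, from -0.999 to -0.90, and the count of lower pairs was 14 after detrending, 16 without control library 1, 8 without control library 2, 6 without knockdown library 1 and 9 without knockdown library 2.

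The voltage-gated pore-forming genes (29 genes, 286 pairs) had 17 higher and 43 lower pairs with TMM and 17 and 35 after detrending (21.0% and 18.2% of its pairs, against 16.3% and 11% of all). Of the genes 6 had only higher pairs, 13 only lower, KCNQ5 had both and 9 had none. The 9 were KCNA1, KCNA4, KCNA5, KCNA6, KCNC2, KCNH5, KCNH7, KCNH8 and KCNQ3. The class had 25 pairs past the threshold without knockdown library 1, and without knockdown library 2 it had 36.

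KCNQ genes encode the subunits of the M current of neurons and, in KCNQ1, of the slow repolarising current of the heart. The 5 genes had 1 higher and 22 lower pairs of 89 with TMM, and 1 and 20 after detrending. This was 25.8% and 23.6% of their pairs, against 16.3% and 11% of all autosomal pairs. KCNQ1 (chromosome 11, 2445008 to 2849105, 404 kb) contributed 15 lower pairs of 38 and no higher pair. It lies in an imprinted domain 2.45 Mb from the end of the short arm. Its leading pair joined the bin 2450001 to 2500000 to the bin of INS, INS-IGF2 and TH, the gene of tyrosine hydroxylase, 300 kb away. The contacts were 3.07 and 2.59 CPM in control and 1.49 and 1.53 CPM in knockdown, with both knockdown libraries below both controls (log2 fold change -0.91 ± 0.21 SE with adjusted p = 0.000371; -0.99 after detrending). Contacts between 2 of its own bins 200 kb apart also fell, from 4.29 to 2.57 CPM (log2 fold change -0.74, adjusted p = 0.000233). Within bins 6 of 9 were lower with TMM and 5 of 9 after detrending. The count of lower pairs was 15 after detrending and 9 without knockdown library 1.

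KCNQ3, which encodes an M channel subunit, had no pair past the threshold among 16. KCNQ5 had 1 higher pair, within the bin 73100001 to 73150000 of chromosome 6, at 2.12 and 2.66 CPM in control and 3.04 and 4.39 CPM in knockdown (log2 fold change 0.64 ± 0.18 SE with adjusted p = 0.00470). That call was lost without control library 1 (adjusted p = 0.0513) and without knockdown library 2 (0.483). Its start bin was lower with TMM (-0.24, adjusted p = 0.0322) and did not pass after detrending (-0.23, adjusted p = 0.0579).

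KCNH genes split. KCNH1 encodes EAG1, a voltage-gated channel expressed in brain and in many tumours, and spans 456 kb and 10 bins of chromosome 1 (210678314 to 211134148). All 20 of its pairs had positive fold changes and 7 were higher. The best supported was contact within the bin 210700001 to 210750000, which rose from 18.4 to 25.9 CPM (log2 fold change 0.49, adjusted p = 4.74e-10; 0.55 and 1.37e-11 after detrending). Within the bin 210900001 to 210950000 contacts rose from 9.55 to 13.5 CPM (0.50, adjusted p = 1.55e-06). The start bin had a fold change of 0.09 (adjusted p = 0.498). Its leading pair by size joined 2 bins of the neighbouring HHAT, the second of which also holds the 3′ end of KCNH1, at 1.41 and 1.16 CPM in control and 1.69 and 2.39 CPM in knockdown. The groups did not overlap (0.67, SE 0.23, adjusted p = 0.0272), but after detrending the adjusted p was 0.0851 (fold change 0.58), with DESeq2 it was 0.0879, without control library 2 it was 0.138 and without knockdown library 2 it was 0.497. The count of higher pairs was 5 after detrending, 4 with DESeq2 and 4 without either knockdown library in turn.

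KCNH2 encodes hERG, the rapid repolarising channel of the heart, which neuroblastoma cells also carry. It occupies 33.4 kb of chromosome 7 (150944961 to 150978321), 8.37 Mb from the end. All 21 of its pairs had negative fold changes and 9 were lower under each scaling, 7 of them the same pairs. The leading pair joined the bin of its start, shared with NOS3, to the bin of ASIC3, CDK5 and AGAP3 100 kb away, at 11.3 and 12.2 CPM in control and 7.64 and 7.98 CPM in knockdown. The knockdown libraries lay well below the controls (log2 fold change -0.58 ± 0.09 SE with adjusted p = 2.50e-07; -0.60 after detrending). Contacts within the start bin were the most abundant of any channel bin, 286 ± 17.98 CPM in control and 203 ± 6.47 in knockdown (-0.49, adjusted p = 7.26e-13). After detrending that bin had a fold change of 0.06 (adjusted p = 0.129), so the loss within the bin depended on the scaling and the loss between bins did not. Without knockdown library 1 there were 5 lower pairs. KCNH3, KCNH4 and KCNH6 also had only lower pairs with TMM.

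**Figure D4:**
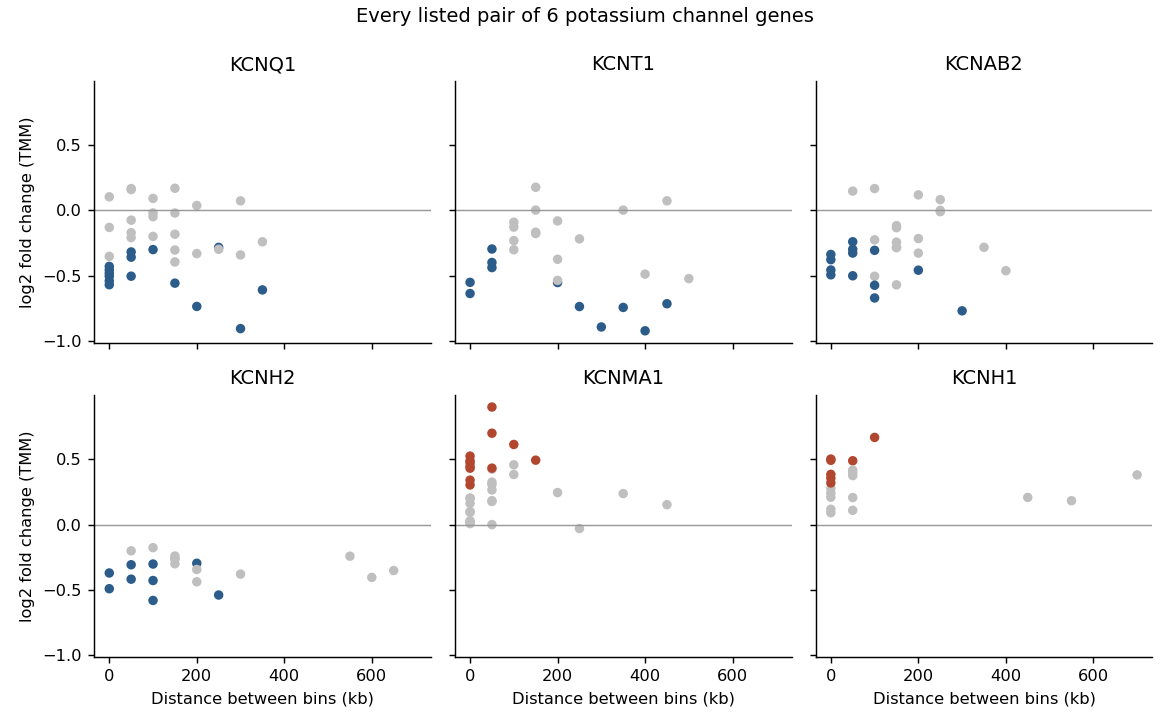
Log2 fold change (TMM) of every listed pair of 6 channel genes against the distance between its bins (kb), where 0 is contact within a bin. Coloured points passed an adjusted p of 0.05 (red higher, blue lower); all pairs of KCNH2 lie below 0 and all pairs of KCNH1 above.

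Shaker-type KCNA genes encode voltage-gated channels, and 8 of the genes with this prefix form pores. These 8 had 29 pairs, 4 higher and 1 lower with TMM and 4 and 0 after detrending. At 17.2% and 13.8% of their pairs, they sat near the 16.3% and 11% of all autosomal pairs. The higher pairs lay in the cluster of KCNA10, KCNA2 and KCNA3 on chromosome 1 (110517217 to 110674940). Contacts joining the KCNA10 bin to the bin of the KCNA2 start 100 kb away were 4.20 and 5.14 CPM in control and 6.84 and 6.38 CPM in knockdown. The groups did not overlap (log2 fold change 0.50 ± 0.13 SE with adjusted p = 0.00145; 0.44 and 0.0110 after detrending). Neither KCNA10 nor KCNA2 had a pair past the threshold without control library 1 or without knockdown library 1. Contacts between KCNA2 and KCNA3 were 1.52 and 1.46 CPM in control and 2.47 and 2.04 CPM in knockdown (0.60, SE 0.22, adjusted p = 0.0447). This last call was lost after detrending (0.51, adjusted p = 0.121), with DESeq2 (0.0803) and without any single library (adjusted p from 0.0613 to 0.437). The other cluster, KCNA6, KCNA1 and KCNA5 on chromosome 12, had no pair past the threshold.

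Of the remaining voltage-gated genes, KCND3, whose product Kv4.3 carries the A-type current that spaces spikes, had 2 higher pairs of 13. Its leading pair joined its start bin to the next bin, which holds no coding gene, at 2.14 and 2.36 CPM in control and 3.72 and 3.28 CPM in knockdown (log2 fold change 0.64 ± 0.18 SE with adjusted p = 0.00559; 0.56 and 0.0212 after detrending). Without knockdown library 1 it was 0.55 with an adjusted p of 0.210. KCND3 then had 0 pairs past the threshold. KCND2 had 1 lower pair, its start bin (-0.32, adjusted p = 0.0205), and 0 without control library 2, knockdown library 1 or knockdown library 2.

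KCNC genes encode fast-closing channels of fast-spiking neurons. The 4 genes had 4 lower pairs of 38 with TMM, all within bins, and 2 lower and 1 higher after detrending. This was 10.5% and 7.89% of their pairs, against 16.3% and 11% of all. KCNC4 had fold changes at its start bin of -0.26 (adjusted p = 0.000126) with TMM and 0.09 (adjusted p = 0.0604) after detrending, and it had 0 pairs past the threshold without knockdown library 1.

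The silent subunits (10 genes, 66 pairs) had 2 higher and 12 lower pairs with TMM and 4 and 7 after detrending (21.2% and 16.7%, against 16.3% and 11% of all), and 5 past the threshold without either knockdown library in turn. KCNG2 lies 0.400 Mb from the end of the long arm of chromosome 18 (79797938 to 79900100). All 13 of its pairs had negative fold changes and 7 were lower under both scalings. Contact within the bin at its 3′ end, shared with SLC66A2, was 54.2 and 55.1 CPM in control and 31.2 and 33.2 CPM in knockdown. The difference was many times the spread within groups (log2 fold change -0.76 ± 0.06 SE with adjusted p = 2.52e-24; -0.58 after detrending). Its start bin fell from 68.2 ± 2.10 to 45.9 ± 1.81 CPM (-0.57).

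KCNG1 went the other way between bins. Its leading pair joined its bin to a bin with no coding gene 150 kb away, at 1.39 and 1.46 CPM in control and 2.38 and 2.27 CPM in knockdown (log2 fold change 0.70 ± 0.22 SE with adjusted p = 0.0141; 0.62 and 0.0496 after detrending). Leaving out knockdown library 1 ended that call (adjusted p = 0.174), as did leaving out knockdown library 2 (0.104). The contact within its bin was lower (-0.19, adjusted p = 0.00758), with a fold change of 0.01 once the trend was removed. KCNG1 had 0 pairs past the threshold without either knockdown library in turn. KCNF1 is a single-exon gene whose direction turned with the scaling. Its bin went from 130 ± 5.72 to 108 ± 0.197 CPM, lower with TMM (-0.26, adjusted p = 9.02e-05) and higher after detrending (0.13, adjusted p = 0.00303), and the TMM call did not survive leaving out knockdown library 1 (adjusted p = 0.105) or knockdown library 2 (0.0843). KCNS3 was lower at its start bin (-0.20, adjusted p = 0.0244) with TMM only (-0.13, adjusted p = 0.196), and lost the call with DESeq2 (0.0949), without control library 2 (0.426), knockdown library 1 (0.327) or knockdown library 2 (0.137). The only pair of KCNV2 had overlapping groups, at 10.3 and 12.8 CPM against 10.6 and 10.4 CPM (-0.14, adjusted p = 0.318). Without control library 1 it passed (-0.30, adjusted p = 0.0153), and without control library 2 it was 0.026.

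Inward rectifiers (16 genes, 81 pairs) had 5 higher and 12 lower pairs with TMM and 3 and 8 after detrending (21.0% and 13.6%, against 16.3% and 11% of all). Pairs past the threshold numbered 6 without knockdown library 1 and 8 without knockdown library 2. The 7 genes with only lower pairs were KCNJ1, KCNJ4, KCNJ5, KCNJ11, KCNJ12, KCNJ14 and KCNJ18. KCNJ11 encodes the pore of the ATP-sensitive channel of the pancreatic beta cell and of neurons, and its bin, shared with ABCC8, the gene of the SUR1 regulatory subunit, had a fold change of -0.35 (adjusted p = 1.04e-07; -0.13 and 0.0322 after detrending). KCNJ12 and KCNJ18 are near-identical copies on chromosome 17, between which reads may be split, so their values are uncertain. Contacts between these copies 250 kb apart were 2.68 and 2.51 CPM in control and 1.71 and 1.95 CPM in knockdown (-0.50, adjusted p = 0.0743; -0.59 and 0.0409 after detrending).

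KCNJ6 encodes GIRK2, a G-protein-gated channel of dopamine neurons, and spans 309 kb of chromosome 21 (37607373 to 37916457). Of its 10 pairs 8 had positive fold changes and 3 were higher with TMM. Contact within its 3′ bin at 37600001 to 37650000 rose from 5.52 to 7.72 CPM (log2 fold change 0.48, adjusted p = 0.000703; 0.44 and 0.00621 after detrending). Its leading pair joined that bin to the next one outward, which holds no coding gene, at 1.76 and 1.26 CPM in control and 2.59 and 2.04 CPM in knockdown (0.62, SE 0.22, adjusted p = 0.0379). This last call was lost after detrending (0.53, adjusted p = 0.103), with DESeq2 (0.100), without control library 2 (0.266), without knockdown library 1 (0.464) and without knockdown library 2 (0.0736). It had 1 higher pair after detrending, 1 with DESeq2, 0 without knockdown library 1, 2 without control library 2 and 1 without knockdown library 2. KCNJ9 and KCNJ10, the latter the potassium-buffering channel of glia, share a bin whose contacts were lower with TMM (-0.23, adjusted p = 0.000726) and higher after detrending (0.13, adjusted p = 0.00352).

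Two-pore channels (15 genes, 150 pairs) had 6 higher and 19 lower pairs with TMM and 6 and 10 after detrending. At 16.7% and 10.7% of its pairs, this class sat near the 16.3% and 11% of all autosomal pairs. Pairs past the threshold numbered 7 without knockdown library 1 and 10 without knockdown library 2, all lower. KCNK4 encodes TRAAK, a mechanically gated leak channel, and its bins hold several other genes. Its leading pair reached the bin of NRXN2, the gene of the synaptic adhesion protein neurexin 2, 350 kb away on chromosome 11, at 2.84 and 2.10 CPM in control and 1.45 and 1.70 CPM in knockdown. The groups did not overlap (log2 fold change -0.64 ± 0.21 SE with adjusted p = 0.0230; -0.73 and 0.0129 after detrending). The call was lost without control library 1 (0.233), knockdown library 1 (0.302) and knockdown library 2 (0.0896). In all 6 of its 17 pairs were lower, 4 with DESeq2, 3 without control library 2 and 2 without either knockdown library in turn.

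KCNK9, the maternally expressed imprinted gene of the leak channel TASK-3, lies on chromosome 8 (139600838 to 139703123), and 7 of its 30 pairs were lower (4 after detrending, 3 without knockdown library 1 and 4 without knockdown library 2). Its leading pair reached a bin of the neighbouring TRAPPC9, at 3.50 and 2.66 CPM in control and 2.00 and 2.31 CPM in knockdown (-0.51, SE 0.19, adjusted p = 0.0459; -0.59 and 0.0225 after detrending). DESeq2 did not call it (adjusted p = 0.0858), nor did the fits without control library 1 (0.334), knockdown library 1 (0.396) or knockdown library 2 (0.132). KCNK5, KCNK17 and KCNK16, which adjoin on chromosome 6, had only higher pairs. None of the 3 had a pair past the threshold with DESeq2, without control library 1, without knockdown library 1 or without knockdown library 2. The pair joining a KCNK5 bin to the bin of KCNK17 and KCNK16 100 kb away was 2.16 and 2.80 CPM in control and 3.45 and 3.46 CPM in knockdown (0.48, SE 0.18, adjusted p = 0.0475; 0.40 and 0.122 after detrending). Only contacts within the shared bin and within the start bin of KCNK5 were higher after detrending (0.18, adjusted p = 0.000695, and 0.16, adjusted p = 0.00487). Their TMM fold changes were -0.07 and -0.05, not past the threshold, and no pair of these 3 genes was higher under both scalings.

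Among auxiliary subunits (11 genes, 74 pairs) 4 pairs were higher and 15 lower with TMM and 2 and 14 after detrending (25.7% and 21.6%, against 16.3% and 11% of all). Pairs past the threshold numbered 8 without knockdown library 1 and 11 without knockdown library 2. Most decreases lay in KCNAB2, which encodes a cytoplasmic beta subunit of KCNA channels, on the short arm of chromosome 1 (5992676 to 6101180, 5.99 Mb from the end). It had 31 pairs, 13 lower and 0 higher under each scaling, 11 of the lower pairs being the same. Its leading pair reached a bin of ACOT7 300 kb away, at 2.03 and 2.28 CPM in control and 1.30 and 1.23 CPM in knockdown. Both knockdown libraries were below both controls (log2 fold change -0.77 ± 0.22 SE with adjusted p = 0.00817; -0.86 and 0.00510 after detrending), and the call was lost without knockdown library 1 (0.0987) and without knockdown library 2 (0.133). Contacts between its bins and those of the neighbouring CHD5 and of RNF207, ICMT, HES3 and GPR153 were lower as well, the latter from 4.93 to 3.09 CPM (-0.67, adjusted p = 0.000252). Without knockdown library 1 there were 7 lower pairs of KCNAB2.

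KCNE3, a small membrane subunit of KCNQ1 and KCNC4 channels, had 1 higher pair of 3, joining its bin to a neighbour with no coding gene. The libraries held 144 and 237 contacts in control and 263 and 327 in knockdown, or 0.941 and 1.54 against 2.17 and 2.20 CPM. The groups did not overlap, but the control libraries lay far apart (log2 fold change 0.82 ± 0.23 SE with adjusted p = 0.00508; 0.73 and 0.0241 after detrending). The call was lost without control library 1 (0.49, adjusted p = 0.149), knockdown library 1 (0.0675) and knockdown library 2 (0.0666). KCNMB4, the neuronal beta subunit of the BK channel, was lower within 1 of its 2 bins, shared with CNOT2, from 10.7 ± 0.721 to 8.36 ± 0.316 CPM (-0.36, SE 0.10, adjusted p = 0.00355; -0.38 and 0.00541 after detrending). That call was lost without control library 2 (0.0543) and without knockdown library 2 (0.120). KCNE1, KCNE2, KCNE4, KCNMB1, KCNMB2 and KCNMB3 had no pair past the threshold.

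**Figure D5:**
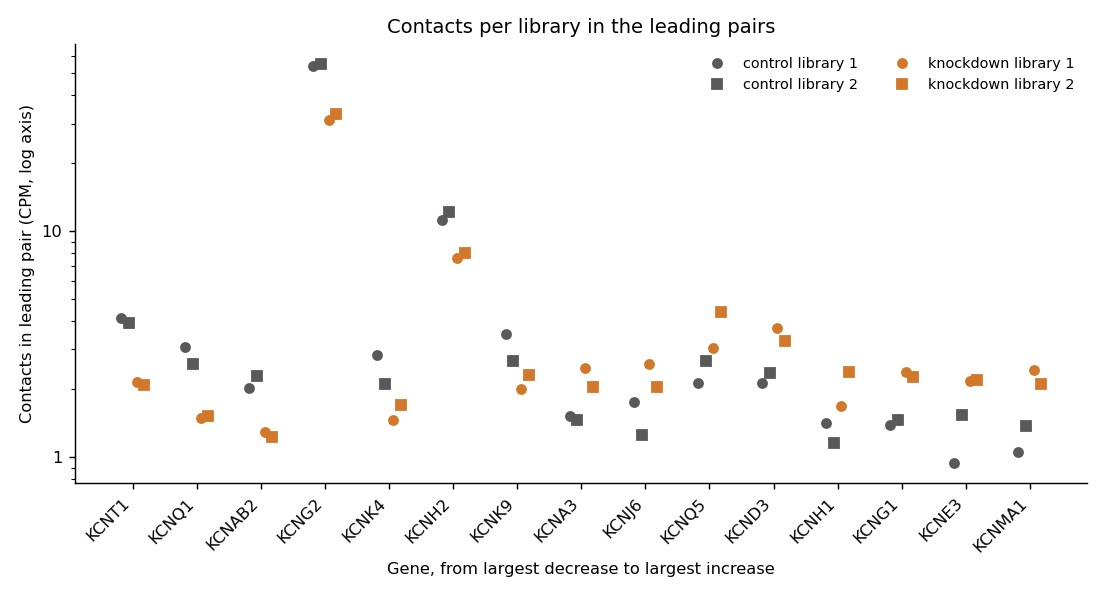
Contacts (CPM, log axis) in each of the 4 libraries for leading pairs among the largest decreases and the largest increases. Grey points are control and orange points knockdown libraries. In each pair shown the groups do not overlap, which the choice of leading pairs required. The increases start at or below 2.66 CPM in control.

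Partner proteins of potassium channels and the related HCN channels were followed through a list of 24 genes, of which 23 had a listed pair and HCN3 had none. With TMM 14 were touched by a pair past the threshold, 4 by higher pairs only, 7 by lower pairs only and 3 by both, and after detrending 13, by 6, 5 and 2. The background shares of touched genes were 58.5% and 38.5%. Among subunits of the A-type channels, KCNIP1 and KCNIP4 had leading increases of 0.74 (adjusted p = 0.00497) and 0.71 (adjusted p = 0.0110), and DPP6 one of 0.71 (adjusted p = 0.01002) beside 5 lower pairs. These increases began at low control means of 1.64, 1.58 and 1.52 CPM. The list holds only abundant pairs, so a decrease from such a level may be absent from it. KCNIP1 had 5 higher pairs and 1 lower, and KCNIP2 had 1 of each. KCNIP3 had 4 lower pairs and 0 higher, led by -0.54 (adjusted p = 0.0499), and DPP10 had none past the threshold. LRRC26, a gamma subunit of the BK channel, had 6 lower pairs and no higher ones, led by -0.73 (adjusted p = 0.0151). HCN2, a pacemaker channel, had 6 lower pairs, led by -0.58 (adjusted p = 3.20e-17, and -0.24 and 4.61e-08 after detrending). LRRC26 and HCN2 both lie within 5 Mb of a chromosome end, where 30.1% of all autosomal pairs were lower and 0.809% higher. The part of chromosome position was not tested. ANK3, the ankyrin that anchors KCNQ channels at the axon initial segment, had 4 higher pairs, led by 0.58 (adjusted p = 0.0111). Several of these counts depended on the scaling. After detrending KCNIP1 had 3 higher and 0 lower pairs, KCNIP2 1 and 0, KCNIP4 1 and 0, and KCNIP3 0 and 1. DPP6 then had 2 higher and 2 lower pairs, ANK3 3 and 0, LRRC26 0 and 7, and HCN2 0 and 6. Values with a library left out are not given for these partner genes.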

How the data were processed

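Micro-C contacts of 2 control and 2 TDP-43 knockdown SH-SY5Y libraries were analysed from a single deposited table of pairs of 50 kb bins. HiC-Pro and the hg38 build are named in the submitters' processing notes, with no version given. Per the file headers the table holds raw contact counts per library, and the authors' log2 fold change and log2 abundance, an F score, a p-value and its adjusted value for each pair. No filter is stated. The lowest mean abundance is -0.01 (log2).

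The deposited counts of all 89239 pairs went into the quasi-likelihood test of edgeR 4.0.16 under R 4.3.3 with limma 3.58.1 (filterByExpr, TMM, glmQLFit, glmQLFTest), with Benjamini-Hochberg adjustment over all pairs and a threshold of 0.05. The filter removed 0 pairs. A loess offset per library removed the trend with abundance (detrending); its log2 fold changes differed by at most 0.00237 from those the authors deposited. CPM used TMM-scaled library sizes. The coefficient of variation between libraries was 9.01%. Tested on simulated data for this comparison (89239 pairs), edgeR found 100% of 100 pairs shifted by 1 log2 unit, 36% of 100 shifted by 0.5, and 4 unshifted pairs. DESeq2 1.42.0 found 96% and 25%. The simulation shifted only these few pairs, gave every pair the same dispersion and held no trend with abundance. Its shares and false calls may therefore differ from those in the real data.

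Channel genes were matched to RefSeq GRCh38.p14 by symbol, and 65 of 88 had an entry in its promoter table. The most upstream entry of a gene was used as its start. The genes, the partner list and the tests were chosen with earlier results of these data known. Named genes were the 8 largest increases and 8 largest decreases among leading pairs, the leading gene of each of 17 subfamilies, and genes that share a described bin. A few of these are not reported here by name, though the counts include them. Other genes given with values were chosen after their values were seen. Alternatives were other scalings, DESeq2, the authors' table, a replicate block, no filter, each library left out, a threshold of 0.01, pairs within or between bins, both bins over the gene and genes away from chromosome ends. Pairs were counted with Python 3.11.15, numpy 2.4.6 and pandas 2.3.3, and plotted with matplotlib 3.10.9.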

Additional observations from a re-analysis of the deposited data

How the results depend on the processing

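Leaving out each library in turn gave 64 to 179 channel pairs, 24 to 59 channel genes and 14 to 37 start bins past the threshold, and 4910 to 16764 pairs over the whole table, the lowest values always without knockdown library 1. Of the start bins 19 passed after detrending and 18 by the authors' deposited p-values, against 33. At an adjusted p of 0.01 the whole table gave 8738 pairs. Contacts within a bin alone gave 90 channel pairs, and contacts between bins alone gave 77 pairs and 31 genes. Away from the chromosome ends 130 pairs and 57 genes passed. The leading pair of KCNF1 reversed to 0.13 after detrending and to 0.13 in the authors' deposited table, and that of KCNV2 to 0.026 without control library 2 (range -0.30 to 0.026 over the libraries left out, -0.30 without control library 1). For each of these the cause was not tested, except that fewer pairs enter the subsets. DESeq2 gave 23.9% higher calls over the whole table, against 35.5%. Of 22 named genes whose leading pair passed, 6 passed under every alternative run, among them KCNT1, KCNQ1, KCNG2 and KCNH2.

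The groups share replicate numbers, which nothing in the labels ties to a common culture, and the residuals of same-numbered libraries correlated at 0.0214. With the replicate block 15663 pairs, 176 channel pairs, 61 channel genes and 34 start bins passed.

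With 2 libraries per group the simulated test found 36% of shifts of 0.5 log2 units, under simulated settings simpler than the data. The count of lower start bins depends on the scaling.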
